A study of Rattus norvegicus with 4 samples.

Results

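Interferon response genes are the genes that a cell switches on when interferon binds its receptors, and 37 of them were followed here in rat liver. They are taken by gene symbol from a named set of antiviral effectors, sensors, transcription factors and chemokines. The rule uses no measured value, though the set was named with earlier results of these data known. Of 31457 rows in the deposited table, 36 carried the symbol of a member, 35 of these were detected somewhere (not listed at 0 throughout), and 29 passed a filter on low levels, against 9267 of all genes. Xaf1 had no row under that symbol, and Ifi44l was listed at 0 in all 4 libraries.

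The study compared livers of Lewis rats (strain LEWIS, allotype RT1L), with poly(A)-selected mRNA sequenced on an Illumina MiSeq. The naive group was an untreated control with no surgery named. The other 3 groups had a partial hepatectomy and were then treated intravenously with saline, with ASCs carrying siRNC, or with ASCs carrying miR27b, and they are called saline, siRNC and miR-27b livers here. The siRNC cells serve as the control for the miR-27b cells, and the saline liver as the control for both cell treatments. What siRNC targets, the cell dose, the source of the ASCs, the time after surgery, the age of the rats and the number of animals behind each library are not stated in the labels used here. Each group holds 1 library, so no comparison has a replicate check, no test between conditions was possible, and every difference below is a difference between libraries. All 12 hepatocyte markers looked up passed the filter, as the liver label calls for.

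Interferons of type I and type III act through receptors that activate JAK kinases and a transcription factor complex that holds STAT2 and IRF9 and binds interferon-stimulated response elements (ISREs) in promoters. Interferon gamma acts mainly through gamma-activated sites (GAS). In the liver, both hepatocytes and resident macrophages (Kupffer cells) can respond, and the response limits virus replication, presents antigen and attracts lymphocytes.

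The promoters show what most of the members with a matched promoter share beside their names. RefSeq promoters of build GRCr8, from 250 bases before to 50 bases after each gene's start, were matched for 28 of the 37 members. Those not matched were Ifit1, Ifit2, Ddx58, Dhx58, Mx2, Oas2, Isg15, Usp18 and Zbp1. The ISRE core was searched as GAAANNGAAA on both strands (its reverse complement reads TTTCNNTTTC). It was found in 18 of the 28 promoters (64.3%), against 3.77% of all 27457 promoters of the same length and 3.01% of the 7370 promoters of genes that passed the level filter. In 15 of the 18, a match began within the 100 bases before the gene's start. The windows of 30 bases below, from genes whose values are described further on, are written 5′ to 3′ on the gene's strand, with the matched core in capitals.
Ifit3 (chr1:241527272-241527301, plus strand): tttaagtctgTTTCAGTTTCtagtttccac
Gbp5 (chr2:233910933-233910962, plus strand): acttgtgtagTTTCAATTTCagtttagagg
Gbp2 (chr2:234005686-234005715, plus strand): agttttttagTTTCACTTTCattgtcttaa
Oas1a (chr12:41330421-41330450, plus strand): tcgggaaatgGAAACTGAAAatcttgttcc
Oas1b (chr12:41395886-41395915, minus strand): ccgggaaatgGAAACTGAAAaccctattta
Irf7 (chr1:205800073-205800102, minus strand): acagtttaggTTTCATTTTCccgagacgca
Rsad2 (chr6:48788248-48788277, minus strand): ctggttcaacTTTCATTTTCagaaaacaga
Ifitm3 (chr1:205541783-205541812, minus strand): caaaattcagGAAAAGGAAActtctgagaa
Eif2ak2 (chr6:21941128-21941157, plus strand): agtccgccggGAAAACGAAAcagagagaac
Parp14 (chr11:78408048-78408077, plus strand): tccaggaaatGAAAGTGAAAgaagtaagtt

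The neighbouring genes Oas1a and Oas1b each held 2 overlapping matches, of which the one nearer the start is shown. No ISRE core was found in the window of Mx1, Oasl, Irf8, Irf9, Stat2, Ifi35, Cmpk2, Herc6, Parp9 or Cxcl9. A GAS core, searched as TTCNNNGAA, which is its own reverse complement, was found in 8 of the 28 promoters (28.6%), against 8.68% of all promoters. The 8 were Oas1a, Oas1b, Irf8, Irf9, Ifi44l, Ifitm3, Parp14 and Cxcl9. Irf8 held a pair of such matches, shown here because it lacked the ISRE core.
Irf8, match farther from the start (chr19:65699094-65699123, plus strand): cagaagtgatTTCTCGGAAaggcgagcgct
Irf8, match nearer the start (chr19:65699113-65699142, plus strand): aggcgagcgcTTCAGAGAAggcggacccgg

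Such a match is a run of letters in a window and not a measured binding site.

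The deposited values are log2 normalized reads minus a baseline for each gene, so they show how a gene differs between libraries and not how high it is. A difference of 1 is a fold of 2, which is the size used below to call a gene higher or lower. For 7 of the 29 members that passed the filter, the read numbers could be recovered from the values, and for these a 95% counting interval of the log2 fold is given. The other 22 could only be placed in a level class, 13 of them at 16 normalized reads or more and 9 at 16 times that level or more. At 16 reads in each library, counting alone gives a log2 difference an SD of 0.51, and at the higher class at most 0.13. Intervals and SDs cover counting error only, as reads that are PCR copies of 1 molecule are not independent. On simulated data 90.6% of recovered read sets were right, and a wrong set alters the interval but not the fold, which comes from the deposited values.

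The range over the 4 libraries had a median of 0.61 on the log2 scale over the members, against 0.53 over all genes that passed the filter. It reached 2-fold in 5 members (17.2%), namely Mx1, Gbp5, Ifit3, Cmpk2 and Cxcl9, against 18.5% of all genes. The naive liver was the lowest of the 4 in 15 of the 29 members (51.7%), while it was the lowest in 29.5% of all genes. The miR-27b liver was the highest in 16 of 29 (55.2%), against 24.6% of all genes.

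**Figure D1:**
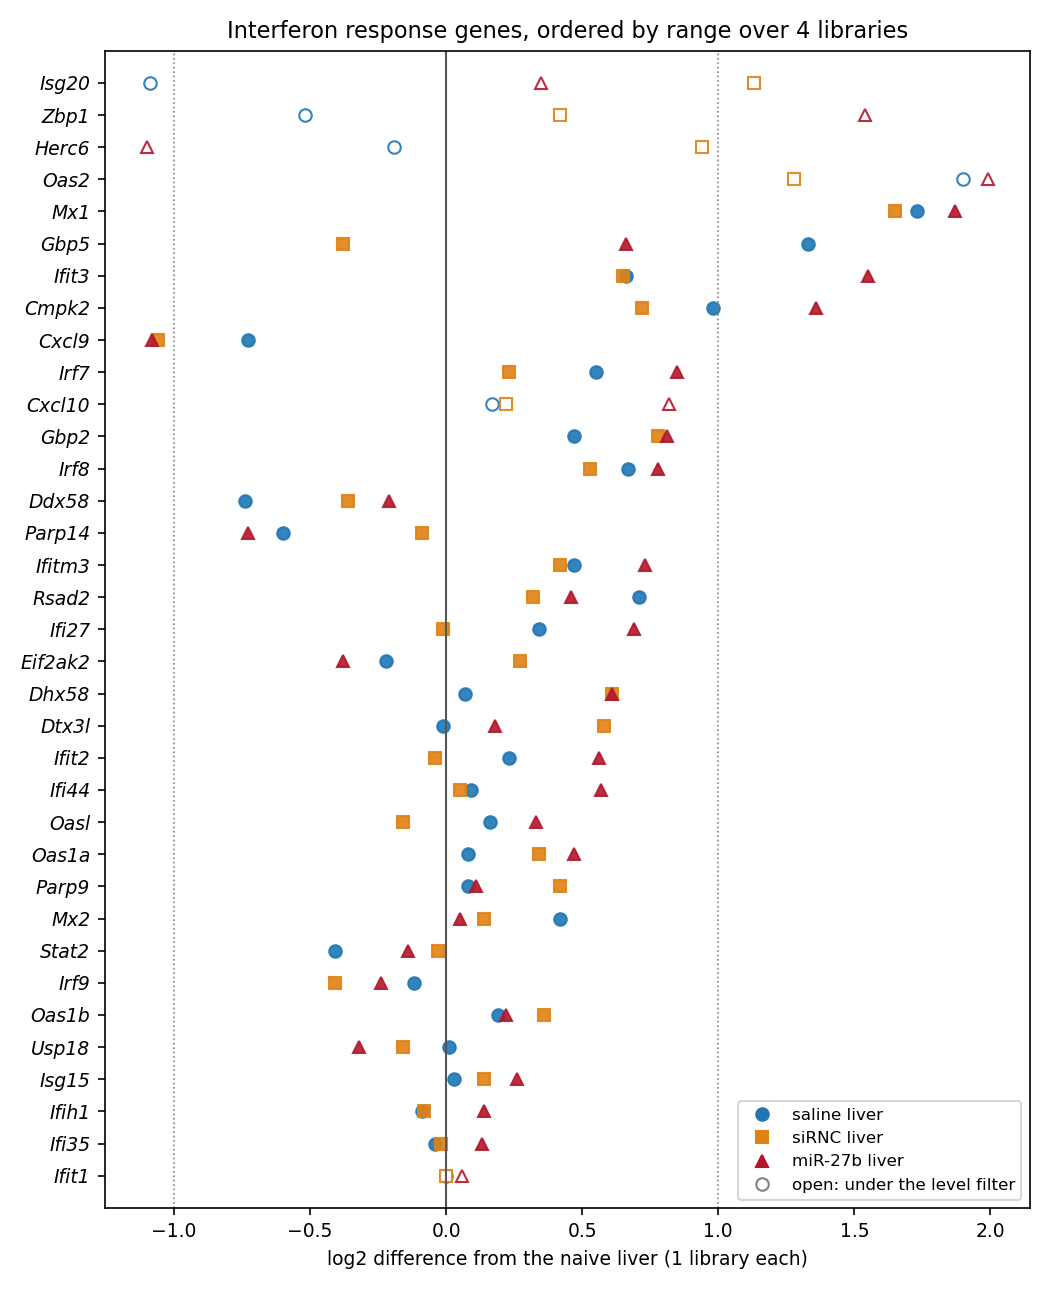
Log2 difference of saline, siRNC and miR-27b livers from the naive liver (x axis) for each member with a value (rows, ordered by the range over 4 libraries); 1 library each, dotted lines at a 2-fold difference. Filled points passed the level filter and open points did not; Mx1 lies past 2-fold in all 3 livers, and Cxcl9 lies to the left in all 3.

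Against the naive liver, the saline liver was at least 2-fold higher in 2 of the 29 members (6.9%), Mx1 and Gbp5, where 5.27% of all genes were that much higher. None was 2-fold lower, against 3.52% of all genes. The members' median log2 fold was 0.09, with 20 of 29 above 0, beside a median of -0.01 over all genes. The siRNC liver was at least 2-fold higher than naive in 1 member, Mx1 (3.45%), against 5.45% of all genes, and at least 2-fold lower in 1, Cxcl9 (3.45%), against 3.3%. Its median was 0.14, with 17 of 29 above 0. The miR-27b liver was at least 2-fold higher than naive in 3 members, Ifit3, Mx1 and Cmpk2 (10.3%), against 7.54% of all genes, and at least 2-fold lower in Cxcl9 (3.45%), against 3.66%. Its median was 0.33, with 22 of 29 above 0 (75.9%), where the median of all genes was -0.03 and 47.1% of all genes lay above 0. In that comparison 15 of the 29 members (51.7%) lay within 0.5 of naive on the log2 scale, against 68.5% of all genes. These 3 comparisons share the naive library, so they are not separate evidence. The shares of members called were near those of all genes in each of them.

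Among the hepatectomised livers, fewer members were apart, as were fewer of all genes. The siRNC liver was at least 2-fold lower than the saline liver in Gbp5 alone (1 of 29, or 3.45%), against 1.47% of all genes, and no member was that much higher, against 2.02%. The members' median was -0.03. The miR-27b liver was at least 2-fold higher than the siRNC liver in Gbp5 alone, against 2.58% of all genes, and no member was 2-fold lower, against 2.07%. The median was 0.15, with 20 of 29 above 0. Against the saline liver, no member of the miR-27b liver was 2-fold higher (2.02% of all genes) or 2-fold lower (1.5%), and the median was 0.19, with 21 of 29 above 0. Over all genes the medians of these 3 comparisons were between -0.01 and 0.

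**Figure D2:**
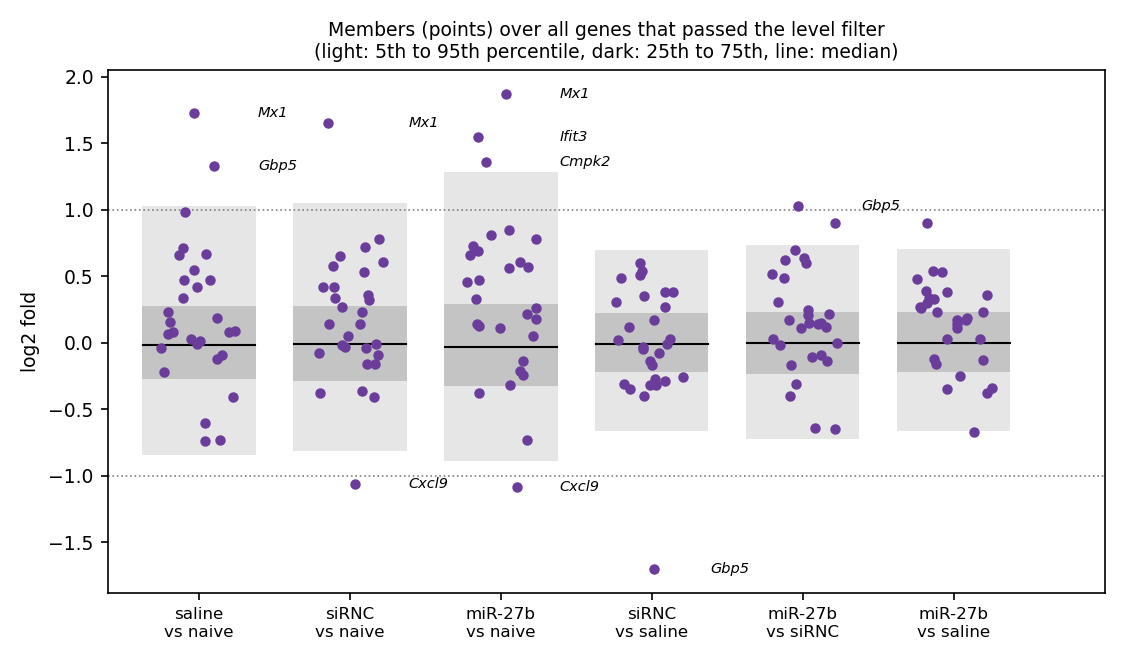
Log2 folds of the 29 members that passed the filter (points, spread sideways only to separate them) in the 6 comparisons, over the 5th to 95th (light) and 25th to 75th (dark) percentiles of all 9267 genes, with their median as a line. Most points lie inside the light bars, and the named ones are past the dotted lines at a 2-fold difference.

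Of the receptors' signalling chain, the members include the transcription factors. Irf7, which amplifies the type I interferon response, had deposited log2 values of -0.55 in the naive, 0 in the saline, -0.31 in the siRNC liver and 0.30 in the miR-27b liver. The naive liver was the lowest and the miR-27b liver the highest, with a range of 0.85. Irf8, a factor of macrophages and dendritic cells, was at -0.55 in the naive liver and at 0.12 (saline), -0.02 (siRNC) and 0.23 (miR-27b) in the others. All 3 hepatectomised livers were thus above the naive one. Stat2 and Irf9, which belong to the ISRE-binding complex, were highest in the naive liver, each with a range of 0.41. Neither reached 2-fold in any comparison.

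Of the sensors of viral RNA, Ifih1 was near level, while Ddx58, Dhx58 and Eif2ak2 had ranges of 0.74, 0.61 and 0.65 and were in the higher level class. Ddx58, which encodes RIG-I, had values of 0.34 in the naive, -0.41 in the saline, -0.03 in the siRNC liver and 0.12 in the miR-27b liver, so that the naive liver was the highest. Ifih1, which encodes the related sensor MDA5, had a range of 0.23. Dhx58, which encodes their regulator LGP2, was at -0.59 and -0.53 in the naive and saline livers and at 0.02 in both livers given cells. The difference between the siRNC and naive livers was 0.61. Eif2ak2, the RNA-dependent kinase PKR that halts translation, was highest in the siRNC liver at 0.27 and lowest in the miR-27b liver at -0.38. Zbp1, a sensor of Z-form nucleic acids, did not pass the filter; its values were -0.42, -0.94, 0 and 1.12 in naive, saline, siRNC and miR-27b liver, and it lay in the class under 16 reads.

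Mx1, a dynamin-like GTPase that blocks virus replication, was the member with the widest range among those that passed the filter. Its reads (gene ID 24575) were 36 in the naive, 127 in the saline, 116.5 in the siRNC liver and 128.8 in the miR-27b liver, where the recovered numbers need not be whole. The naive liver stood apart below the other 3, which were close to each other. The saline liver was 3.32-fold above the naive one (log2 fold 1.73, 95% counting interval 1.19 to 2.31). The siRNC liver was 3.14-fold above it (1.10 to 2.23) and the miR-27b liver 3.65-fold (1.33 to 2.45). Between the hepatectomised livers the log2 folds were at most 0.22 in size, and each interval included 0. Mx2, its close relative, had a range of only 0.42 and was highest in the saline liver. Reads of such near copies may be split between them, and no label says how the counting treated them.

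The IFIT proteins bind foreign RNA. Ifit3 (gene ID 309526) had 31 reads in the naive, 52 in the saline, 50 in the siRNC liver and 89 in the miR-27b liver. The miR-27b liver was the highest, and the saline and siRNC livers lay together between it and the naive liver. Against naive, the miR-27b liver was 2.93-fold higher (log2 fold 1.55, interval 0.95 to 2.19), while the saline and siRNC livers were 1.58-fold and 1.57-fold higher with intervals that included 0. Ifit3 was also 1.87-fold higher in the miR-27b than in the siRNC liver (log2 fold 0.90, interval 0.39 to 1.43) and 1.86-fold higher than in the saline liver (0.39 to 1.42). These folds are under 2, though larger than counting error. Ifit2 was likewise highest in the miR-27b liver, at 0.33, against -0.23, 0 and -0.27 in the naive, saline and siRNC livers. Ifit1 had 1 read in the miR-27b liver. In the other 3 it was at the floor of 1 normalized read, so its reads there are not known and no fold can be given.

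**Figure D3:**
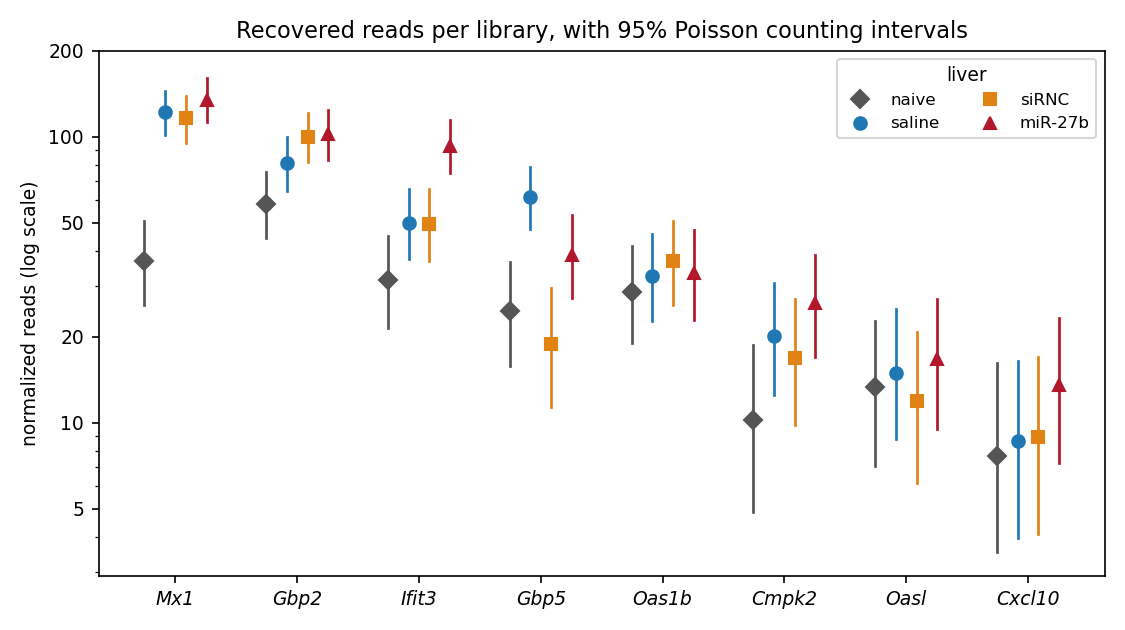
Normalized reads (log axis) in each of the 4 livers for the 8 members with recovered reads in every library, with exact 95% Poisson counting intervals as bars; Cxcl10 is under the level filter. In Mx1 the naive point lies below the 3 others, in Ifit3 the miR-27b point lies above, and in Gbp5 the saline point lies above the naive and siRNC points.

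The guanylate-binding proteins are GTPases that attack intracellular pathogens and respond strongly to interferon gamma. Gbp5 (gene ID 362050) had 24 reads in the naive, 64 in the saline, 19 in the siRNC liver and 37 in the miR-27b liver. The saline liver was the highest and the siRNC liver the lowest, an order that no other member with recovered reads had. The saline liver was 2.51-fold above naive (log2 fold 1.33, interval 0.63 to 2.07). The siRNC liver was 3.26-fold below the saline liver (log2 fold -1.70, interval -2.53 to -0.95). The miR-27b liver was 2.05-fold above the siRNC liver (log2 fold 1.03, interval 0.20 to 1.91), just past the 2-fold size, and 1.59-fold below the saline liver (log2 fold -0.67, interval -1.30 to -0.06). With a pseudocount of 5 the difference between the miR-27b and siRNC livers was 0.87, under the 2-fold size. Gbp2 (gene ID 171164) had 57 reads in the naive, 84.0 in the saline, 100.9 in the siRNC liver and 98 in the miR-27b liver. Here the naive liver was the lowest, and both livers given cells were 1.72-fold and 1.76-fold above it (log2 intervals 0.30 to 1.28 and 0.33 to 1.31). Both genes belong to a family of similar sequences, so their reads may be shared.

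The oligoadenylate synthetases, which activate RNase L on sensing double-stranded RNA, had no member past the filter that was 2-fold apart in any comparison. Oas1b had 28, 34, 37 and 32 reads and Oasl had 13, 15.5, 12 and 16 in naive, saline, siRNC and miR-27b liver. Every counting interval of both genes included 0 in the 6 comparisons. Oas1a had a range of 0.47, with the naive liver the lowest. Oas2 was under the filter, in the class below 16 reads, with values of -1.90, 0, -0.62 and 0.09 in the same order of livers. The naive liver was the lowest in Oas1a, Oas1b and Oas2. Oas1a and Oas1b are near copies, and reads may be shared between them.

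Among further antiviral effectors, Cmpk2, a mitochondrial nucleotide kinase, had 10 reads in the naive, 21 in the saline, 17 in the siRNC liver and 25.1 in the miR-27b liver (gene ID 314004). The naive liver was again the lowest. The miR-27b liver was 2.57-fold above it (log2 fold 1.36, interval 0.24 to 2.58), while the saline liver, at 1.97-fold, fell just short of the 2-fold size and had an interval that included 0. Rsad2, which encodes viperin and lies beside Cmpk2 in the genome, had values of -0.46, 0.25, -0.15 and 0 in naive, saline, siRNC and miR-27b liver. Ifitm3, a membrane protein that restricts virus entry, was at -0.47, 0, -0.05 and 0.26, and was one of the 9 members of the higher level class. Ifi27 was highest in the miR-27b liver, at 0.36, and near -0.35 in the naive and siRNC livers. Ifi44 was at 0.48 in the miR-27b liver and between -0.09 and 0 in the others. Ifi35 was nearly level, with a range of 0.17. Isg20, a ribonuclease, did not pass the filter and was at -0.35, -1.44, 0.78 and 0.

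The genes of ISG15 conjugation and ADP-ribosylation that passed the filter had ranges from 0.26 in Isg15 to 0.73 in Parp14. Isg15, a ubiquitin-like modifier, had a range of 0.26, and Usp18, the protease that removes it and also damps interferon signalling, one of 0.34. Herc6, which takes the part of an ISG15 ligase in rodents, was under the filter, with values of 0, -0.19, 0.94 and -1.10 in naive, saline, siRNC and miR-27b liver. Parp9 and Dtx3l, partners in one complex, were both highest in the siRNC liver, at 0.31 and 0.40. Parp14, a mono-ADP-ribosyltransferase, was lower in the saline and miR-27b livers, at -0.51 and -0.64, than in the naive and siRNC livers, at 0.09 and 0.

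Of the members that are chemokines drawing T cells through CXCR3, Cxcl9 passed the filter and Cxcl10 did not. Cxcl9 (gene ID 246759) was highest in the naive liver, at 1.06, against 0.32 in the saline, 0 in the siRNC liver and -0.02 in the miR-27b liver. It was the one member past the filter that was at least 2-fold lower than naive in any liver, with log2 folds of -0.73 (saline), -1.06 (siRNC) and -1.08 (miR-27b). Its reads were not recovered, so no counting interval can be given. With a pseudocount of 5 normalized reads, and its level set at the bottom of its class, the siRNC and miR-27b folds were -0.87 and -0.88 and no longer reached 2-fold. Cxcl10 missed the filter narrowly, with 7.5, 9, 9 and 13 reads in naive, saline, siRNC and miR-27b liver and every interval including 0.

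The rest of the pathway was read from lists of other genes. All 11 interferon ligand genes with a row, among them Ifnb1, Ifna1 and Ifng, were listed at 0 in every library. Of 11 receptor and JAK-STAT genes that passed the filter, 2 were at least 2-fold higher than naive in the miR-27b liver, Il10rb and Stat3, and 1 in the saline liver, Stat3, against 7.54% and 5.27% of all genes. None was 2-fold higher in the siRNC liver (5.45% of all genes), and none was 2-fold lower in any of the 3 (3.3% to 3.66% of all genes). Stat3, the main factor of IL-6 signalling, was at -0.94 in the naive, 0.34 in the saline, -0.32 in the siRNC liver and 0.71 in the miR-27b liver. Jak1, a kinase bound to the receptors, had a range of 0.32. Irf1, an early target of interferon gamma, was at 0.31, -0.48, -0.50 and 0.65, and so was higher in the miR-27b than in the siRNC liver by 1.15. In that comparison 2 of the 11 genes, Stat3 and Irf1, were at least 2-fold higher, against 2.58% of all genes. In miR-27b against saline 1 was, Irf1, against 2.02% of all genes. None was 2-fold lower in either, against 2.07% and 1.5% of all genes.

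Of 12 sensing genes upstream of interferon that passed the filter, 4 were at least 2-fold higher than naive in the miR-27b liver, Tlr7, Tlr4, Irf5 and Unc93b1. In the saline liver there were 3 and in the siRNC liver 2, and none was 2-fold lower, against 3.3% to 3.66% of all genes. The shares of all genes at least 2-fold higher were 7.54%, 5.27% and 5.45% in the miR-27b, saline and siRNC livers. Tlr7, an endosomal receptor for single-stranded RNA, had values of -1.27 in the naive, 0.26 in the saline, -0.01 in the siRNC liver and 0.16 in the miR-27b liver. Its naive reads numbered 6.1, and the interval of the siRNC liver against naive (-0.17 to 2.93) included 0. Ikbke and Nod1 were the flattest of that list, with ranges of 0.35 and 0.24. Of 12 inhibitors, only Socs3 was at least 2-fold higher than naive, in the saline and miR-27b livers, against 5.27% and 7.54% of all genes. Only Rnf125 was at least 2-fold lower, in all 3 hepatectomised livers, against 3.3% to 3.66% of all genes. Socs3, which blocks cytokine receptors, was at -2.01, 0.05, -1.15 and 0.70, and Rnf125, a ubiquitin ligase that acts on RIG-I, was at 2.15, -0.15, 0 and 0.44. Pias3 and Ptpn6 had ranges of 0.18 and 0.32.

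Of 33 other type I interferon targets that passed the filter, 6, 5 and 8 were at least 2-fold higher than naive in saline, siRNC and miR-27b livers, against 5.27%, 5.45% and 7.54% of all genes. Only Parp12 was 2-fold lower, in the miR-27b liver (3.66% of all genes), where it was at -1.79 against 0 in the naive and siRNC livers. The list's medians were 0.16, 0.03 and 0.30. Plscr1, a phospholipid scramblase, had values of -1.52, 0, -0.16 and 0.52 in naive, saline, siRNC and miR-27b liver. Epsti1 was at -1.50, 0, 0.46 and -0.01, and Ifi204, a DNA sensor of the myeloid lineage, at -1.19, -0.10, 0 and 0.59. In these 3 genes the naive liver lay at least 2-fold below each of the others. For Plscr1, with 14 naive reads, each of the 3 counting intervals against naive lay above 0. For Epsti1, with 4 naive reads, the intervals for the saline (-0.23 to 3.58) and miR-27b (-0.26 to 3.60) livers included 0. For Ifi204, with 8 naive reads, those for the saline (-0.19 to 2.49) and siRNC (-0.05 to 2.61) livers did. Trim21 and Cmpk1 had ranges of 0.09 and 0.10.

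Of 22 interferon gamma targets, 2, 3 and 5 were at least 2-fold higher than naive in saline, siRNC and miR-27b livers, against 5.27%, 5.45% and 7.54% of all genes. None was 2-fold lower (3.3% to 3.66% of all genes), and the medians were -0.03, -0.09 and 0.08. The widest ranges were those of Cd74, the invariant chain of antigen presentation (2.18), Fcgr1a, an IgG receptor (1.75), Cybb, the phagocyte oxidase subunit (1.71), and Ifi47, an immunity-related GTPase (1.69). Cd74, Fcgr1a and Cybb are also expressed by macrophages. B2m, the light chain of MHC class I, had a range of 0.18.

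Markers of macrophages and Kupffer cells moved with the comparisons against naive. All 16 markers that passed the filter were higher in each of the 3 hepatectomised livers than in the naive one, with medians of 1.27 in the saline, 1.14 in the siRNC liver and 1.48 in the miR-27b liver, and log2 folds between 0.48 and 2.65. At least 2-fold higher were 14, 10 and 15 of the 16, against 5.27%, 5.45% and 7.54% of all genes. Of the 18 markers 17 had a row, and Timd4 was listed at 0. Their summed level cannot be given, because the reads of none were recovered. Between the hepatectomised livers the macrophage medians were -0.15 for siRNC against saline, 0.35 for miR-27b against siRNC and 0.22 for miR-27b against saline. No marker was 2-fold apart there, against 1.47% to 2.58% of all genes in each direction. The part of these cells in the members' differences was not tested, and in whole tissue more cells of a type and more RNA per cell cannot be told apart.

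Of the 12 neutrophil and monocyte markers, 2 passed the filter, and they went different ways. S100a9 was at -3.87, -1.08, 0.09 and 1.32 in naive, saline, siRNC and miR-27b liver. Cd14 was at 0.28, 0.41, -0.27 and 0, and so was below naive in both livers given cells. Mpo, Elane, Camp, Ly6c and Fpr1 were listed at 0. Only 3 of 12 dendritic cell markers, 1 of 17 T and NK cell markers and 1 of 10 B and plasma cell markers passed the filter. Siglech and Ccr9, found on plasmacytoid dendritic cells, were listed at 0. Cd4, the 1 gene of the T and NK cell list that passed, had values of -1.02, -0.05, 0 and 0.23. Klrb1, Eomes and Cd2 of that list were listed at 0, and Cd4 alone cannot stand for T or NK cells. The part of any of these cell types in the members' differences was not tested either. The 12 hepatocyte markers had medians of 0.12, 0 and 0.21 against naive, and Alb had a range of 0.16. Fga, Fgb and Fgg, which encode fibrinogen chains, were the hepatocyte markers at least 2-fold above naive, in the miR-27b liver alone (7.54% of all genes).

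**Figure D4:**
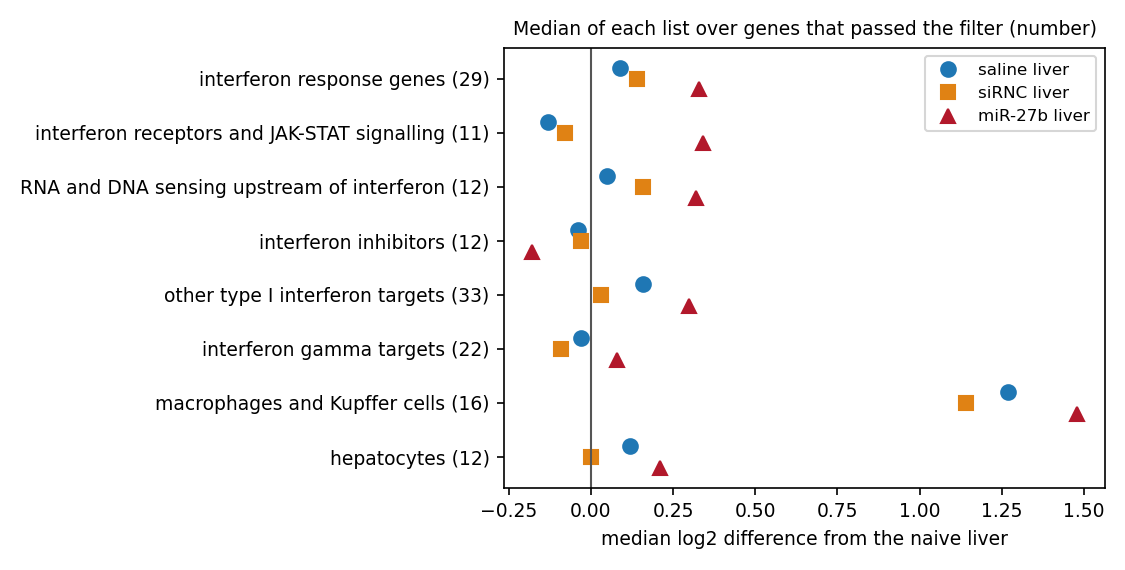
Median log2 difference from the naive liver (x axis) of the members and of the other lists with at least 10 genes that passed the filter (rows, number of genes in parentheses), for saline, siRNC and miR-27b livers. The members' medians lie between 0.09 and 0.33, and those of the macrophage markers between 1.14 and 1.48.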

How the data were processed

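Poly(A)-selected mRNA of 4 livers, 1 library per group, was prepared with TruSeq reagents, per the labels' protocols. DESeq (version unnamed) and build rn5 are named, per the submitters' processing notes; aligner and counter are not given in the sources used. The deposited values are on a log2 scale, and the column headers call them normalized. From the values, they behave as log2 of reads divided by a size factor, floored at 1 normalized read, minus a baseline per gene. In 77.3% of genes with a value other than 0, at least 1 library is at exactly 0. They do not give the total reads of a library.

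The worth of 1 read gave size factors of 0.9771 (naive), 1.039 (saline), 1.005 (siRNC) and 0.9562 (miR-27b). Reads were recovered by a search over whole reads and fixed small fractions of a read, accepted at a posterior of at least 0.9, for 3360 of 12874 genes. The other genes were placed in a level class (at least 16 normalized reads, or 16 times that) at a probability of at least 0.5, from the rounding of the stored numbers. Genes whose mean reached 10 normalized reads, or whose class began at 16, passed the filter. On simulated data (720 genes), 593 were recovered, of which 537 (90.6%) were right, and the class was often wrong near 16 reads. A far smaller part of the deposited genes was recovered, so the simulated share need not hold for them.

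The recovery method, with its assumed shares of whole and fractional reads, was revised several times after values had been seen, the members' among them. The revisions followed the simulations and the rounding of the stored numbers. They altered which genes passed: Herc6 passed in an earlier version, and whether the reads of Rsad2, Oasl and Mx1 counted as recovered also varied. Members and gene lists were chosen with earlier results of these data known.

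Log2 folds are differences of deposited values. Intervals are exact conditional binomial (Clopper-Pearson) intervals at 95%, from reads rounded to whole numbers. A fold of 2 was the size for a call, and 5 alternatives were tried. Values are printed for every library for members with recovered reads or at least 2-fold apart, and for others as examples. From each other list, the genes of widest and narrowest range are named, some left out for length and 1 not reported here. The examples among members without recovered reads were chosen after their values were seen. Analyses used numpy 2.4.6, pandas 2.3.3, scipy 1.17.1 and matplotlib 3.10.9.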

Additional observations from a re-analysis of the deposited data

How the results depend on the processing

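Every group holds 1 library, so the spread between animals is unknown. With no filter (35 members), members at least 2-fold higher numbered 3 in siRNC and 5 in miR-27b against naive, 2 in siRNC against saline, 2 in miR-27b against siRNC and 2 in miR-27b against saline. At least 2-fold lower were 1 in saline and 2 in miR-27b against naive, and 1 in miR-27b against siRNC. With the stricter filter (12 members), 1 was higher in saline against naive, 0 in miR-27b against siRNC, and 0 were lower in siRNC or miR-27b against naive and in siRNC against saline. With a pseudocount of 5, Cxcl9 and Gbp5 lost calls: 0 were lower in siRNC or miR-27b against naive, and 0 higher in miR-27b against siRNC. Without members that have close copies (22 members), 0 were higher in saline against naive, siRNC against naive or miR-27b against siRNC, and 0 lower in siRNC against saline. The median of all genes was 0 in each library, so centring on it moved nothing and checks nothing. Of 30 medians under the alternatives, 6 of them under that centring, 28 kept their sign, with a largest shift of 0.36. These counts are small, so 1 gene moves each by a large share. The shares of all genes were computed under the main filter alone, so these counts cannot be set against them. No paired analysis was possible because each group has 1 library.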
